A study of Homo sapiens with 16 samples.

Results

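The genes described here are those that carry iron into a cell, store it and control its level: TFRC, the transferrin receptor; SLC40A1, the iron exporter ferroportin; FTH1 and FTL, the heavy and light subunits of ferritin; and ACO1 and IREB2, the iron regulatory proteins. They were picked by gene symbol, by a rule that uses no measured value, though with earlier results of these data known. Each of the 6 genes is read by 1 of the 20589 probe rows on the array, which cover 18190 gene symbols. The rows were followed in MCF-10A cells, a nontransformed human mammary epithelial line, cultured with CP724,714, a small-molecule inhibitor of the HER2 kinase, at 1 µM. RNA came from parallel cultures harvested every 3 hours from 0 to 45 hours, with 1 Illumina Ref8v2 array at each of the 16 time points, and the 0 hour array is the untreated state. All cultures grew in a serum-free Ham's F-12 medium that holds transferrin, selenium, insulin, hydrocortisone and EGF, so transferrin was part of every group. How much iron it carried is not stated. The series has no cultures followed over the same hours without inhibitor, and the medium was renewed at the start, so that the inhibitor, the renewed medium and time in culture cannot be told apart.

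Transferrin carries ferric iron to TFRC at the cell surface, and the complex is taken into endosomes where the iron is released. Iron that is not used at once is held inside ferritin, a shell built of FTH1 and FTL, or leaves the cell through SLC40A1. ACO1 and IREB2 bind a hairpin called the iron-responsive element (IRE) when iron is scarce, which protects the TFRC mRNA from decay and blocks translation of the ferritin mRNAs. That control of ferritin acts on translation, so an mRNA level as measured on an array is not a measure of ferritin protein.

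The sequences below show short motifs in 2 of the genes on which the results turn. RefSeq windows of assembly GRCh38.p14, from 250 bases before to 50 bases after a gene's start, were at hand for 5 of the 6 genes. FTH1 had no window and was not searched. The first sequence is the 100 bases before the start of TFRC (chr3:196082091-196082190, minus strand) and the next the 100 bases before the start of FTL (chr19:48965209-48965308, plus strand), each with the letters ACGTG, the core of sites bound by hypoxia-inducible factors, in capitals where they occur on either strand (in FTL they read CACGT, the opposite strand). The last is a stretch of the first transcribed bases of FTL (chr19:48965331-48965358, plus strand), with the loop letters of the IRE, CAGTG, in capitals.
TFRC promoter: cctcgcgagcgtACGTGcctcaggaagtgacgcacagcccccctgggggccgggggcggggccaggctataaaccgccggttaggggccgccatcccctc
FTL promoter: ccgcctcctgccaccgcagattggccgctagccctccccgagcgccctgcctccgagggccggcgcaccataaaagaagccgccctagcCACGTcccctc
FTL transcript start: ctgtctcttgcttcaaCAGTGtttggac

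Counted from the start site, ACGTG began at base -88 of TFRC and at base -11 of FTL. It was in no window of SLC40A1, ACO1 or IREB2, and was in 21.4% of all 35116 windows when both strands were searched. CAGTG began at transcribed base 39 of FTL and was in no window of the other 4 genes searched, which do not include FTH1. It was in 6.48% of all windows when only the first 50 transcribed bases were searched on the sense strand. An IRE further along a transcript, as in TFRC after the coding region, could not show in this search. In GRCh38.p14 the genes lie at chr3:196049284-196082090 (TFRC), chr11:61964285-61967634 (FTH1), chr19:48965309-48966879 (FTL), chr2:189560590-189580786 (SLC40A1), chr9:32384643-32454769 (ACO1) and chr15:78437431-78501453 (IREB2). The motif matches describe the letters and not the binding of any protein.

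Of the 16 arrays, each had 10325 to 10889 rows above background, that is with a detection p-value under 0.05, and the median deposited intensity ranged from 210.4 to 253.9. The level of the negative control beads, inferred from the detection p-values, was 187.8 to 198.6 on the first 8 arrays and 165.8 to 184.9 on the last 8. Keratin and other mammary epithelial markers were on the array for 13 genes, of which 10 were above background on all 16 arrays, while none of the 16 blood, endothelial, fibroblast and liver markers was above background on all arrays and 12 were so on none. The exceptions among the latter were PECAM1 on 15 arrays, CD14 on 12, and PTPRC and DCN on 5 each, and their part in the results was not tested. Of the epithelial markers, KRT14 was above background on 1 array, LAMB3 on at most 4 and TP63 on 10. Values below are log2 intensities after background correction and quantile normalization unless called deposited intensities, and a mean ± SD is over 4 consecutive time points, which are not replicate cultures. Each test therefore measures a change against the spread between neighbouring time points, and the number of arrays limits the precision.

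The 2 ferritin mRNAs fell together between 9 and 12 hours, stayed below their first window to 33 hours and rose at 36 hours. FTL had come back in part by 24 hours, so that its return had 2 steps. TFRC moved otherwise: it climbed from 0 to 12 hours, stayed high to 33 hours and fell at 36 hours. No change of ACO1 mRNA passed a test, IREB2 lay just above background throughout, and SLC40A1 was above background on no array. In a spline of time fitted by limma across all 11957 tested rows, 3 of the 5 tested genes varied with time, TFRC (adjusted p = 6.61e-06), FTH1 (adjusted p = 3.34e-05) and FTL (adjusted p = 0.000883). In that fit 54.6% of all tested rows varied with time. ACO1 (adjusted p = 0.271) and IREB2 (adjusted p = 0.936) did not pass.

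**Figure D1:**
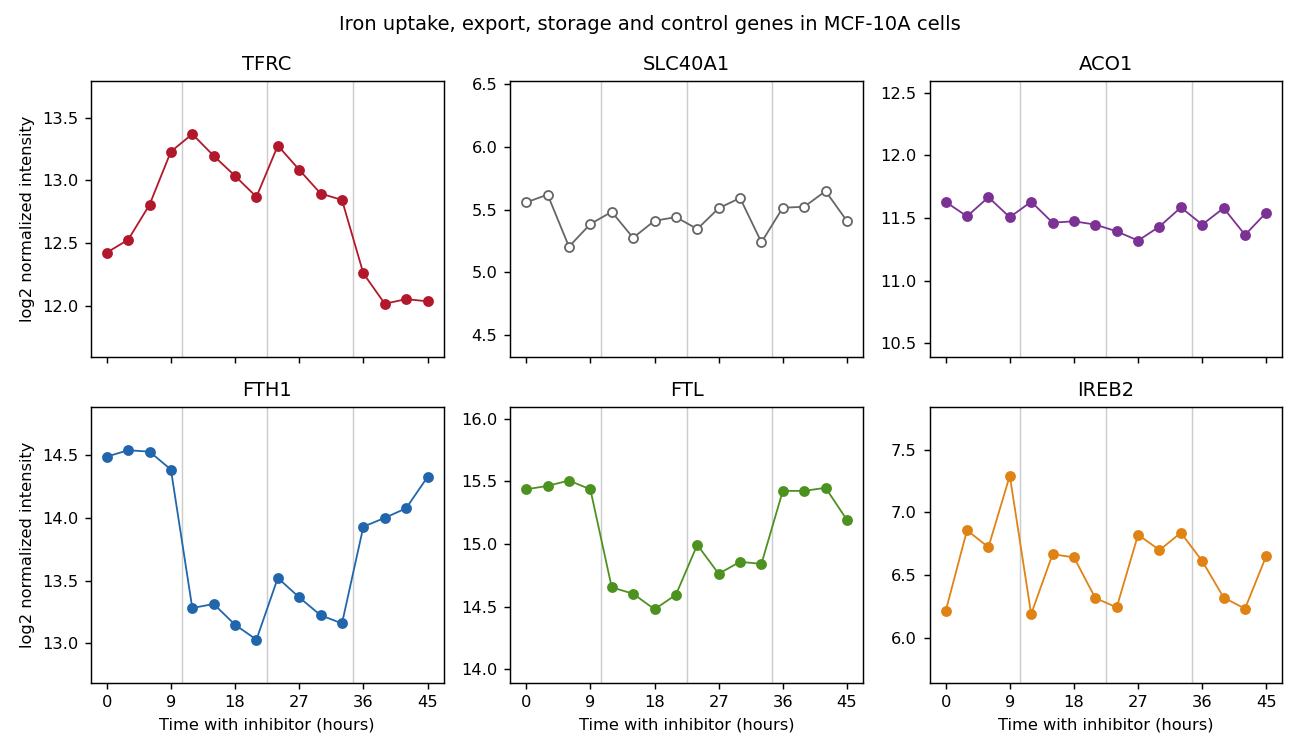
Log2 normalized intensity (vertical axis, each panel spanning the same number of log2 units) against hours with inhibitor for the 6 genes, 1 array per point. Filled points are above background and open points are not, and grey lines divide the windows of 4 time points. FTH1 and FTL drop at 12 hours and rise at 36 hours, TFRC peaks at 12 hours and drops at 36 hours, and SLC40A1 is open throughout.

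TFRC, the receptor through which most cells take up iron, had a deposited intensity of 5395, 5531, 6944 and 9296 at 0, 3, 6 and 9 hours. It was 10390, 9195, 9264 and 7705 at 12, 15, 18 and 21 hours, and 10997, 9900, 8577 and 7880 at 24, 27, 30 and 33 hours. The last 4 arrays, at 36, 39, 42 and 45 hours, gave 5126, 3795, 4125 and 3761. All 4 late values were therefore below the lowest value of the first 33 hours, while the 9 hour value lay within the range of the 2 middle windows. After normalization the highest level, at 12 hours, was 2.56-fold the lowest, at 39 hours.

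TFRC had risen by 6 and 9 hours. The normalized level at 6 and 9 hours was 12.80 and 13.23 against 12.42 and 12.53 at 0 and 3 hours, without overlap. In limma's fit of paired time points the difference was 0.54 (SE 0.12, adjusted p = 0.00326). TFRC was the 1 tested gene of the 5 that was higher in this comparison, in which 13.2% of all tested rows were higher and 11.5% lower. Leaving out the 9 hour array took TFRC to 0.33 and ended the call (adjusted p = 0.0772). At the same hours FTH1 differed by -0.06 (95% interval -0.24 to 0.12) and FTL by 0.02 (95% interval -0.15 to 0.19).

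From the mean of 12.75 ± 0.36 over 0 to 9 hours, TFRC stood at 13.12 ± 0.21 over 12 to 21 hours. That difference of 0.37 (SE 0.15) did not pass the test in limma's window fit (adjusted p = 0.0645), and the values of the first window itself ran from 12.42 to 13.23. It passed with each array scaled to its median (0.53, adjusted p = 0.0129), with no normalization between arrays (0.47, adjusted p = 0.0321) and with the deposited intensities (0.46, adjusted p = 0.0327). The mean over 24 to 33 hours was 13.02 ± 0.20, and it then dropped to 12.09 ± 0.11 over 36 to 45 hours. The late fall of TFRC was -0.93 (SE 0.15, adjusted p = 7.49e-05), or 0.523 of the level before it, and no value of one window reached the other. Between these windows 18.7% of all tested rows were lower and 19.3% higher, and in 22.6% all 4 late values lay below all 4 earlier ones. TFRC also ended below its start: the change from 0 to 9 to 36 to 45 hours was -0.66 (SE 0.15, adjusted p = 0.00235).

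FTH1, the ferritin subunit whose ferroxidase site oxidizes iron for storage, had deposited intensities of 23457, 22921, 22744 and 20494 from 0 to 9 hours. They were 9933, 9921, 10031 and 8685 from 12 to 21 hours and 13033, 12105, 10825 and 9671 from 24 to 33 hours. From 36 to 45 hours they were 16064, 15402, 17027 and 18498. The 3 levels are separate: every value of the first window lay above every later value, and every value of the last window lay above all 8 middle ones. After normalization the highest level, at 3 hours, was 2.85-fold the lowest, at 21 hours.

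The FTH1 fall from 0 to 9 hours (14.49 ± 0.07) to 12 to 21 hours (13.19 ± 0.13) was -1.29 (SE 0.089, adjusted p = 9.98e-08), or 0.408 of the first level. FTL, the light subunit that aids mineral formation in the shell, fell from 15.46 ± 0.03 to 14.58 ± 0.07 over the same windows, a change of -0.88 (SE 0.059, adjusted p = 7.97e-08), or 0.544 of the first level. The ferritins were the 2 tested genes of the 5 that were lower here, in a comparison in which 14.4% of all tested rows were lower and 15.1% higher. In both genes all 4 values lay below all 4 of the first window, as in 11.4% of all tested rows, and 11.7% lay above in the same way. The changes remained between -1.33 and -1.24 for FTH1, and between -0.90 and -0.84 for FTL, when any 1 array was left out.

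The deposited intensities of FTL were 46373, 46041, 45474 and 43637 from 0 to 9 hours and 23824, 22913, 23512 and 24417 from 12 to 21 hours. From 24 to 33 hours they were 35205, 31378, 32606 and 31246, and from 36 to 45 hours 44936, 41304, 45696 and 34174. The middle windows therefore did not overlap in FTL, the second of them being the higher. Of the last 4 values, those at 36 and 42 hours lay within the range of the first window and that at 45 hours was the lowest. The brightest row of each array read 63833 to 68886, so that FTL lay below the brightest signal on every array.

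The ferritin mRNAs dropped in a single 3 hour interval. Between 9 and 12 hours FTH1 changed by -1.11, a 2.15-fold fall that was the 79th largest among 11957 tested rows. FTL changed by -0.78, a 1.72-fold fall that was the 337th largest. IREB2, which lay just above background, fell 2.149-fold in the same interval after background correction and normalization, the 80th largest fall. In deposited intensity the fall of IREB2 was smaller than those of the ferritins. It went to 0.7245 of its 9 hour value, FTH1 to 0.4847 and FTL to 0.546. The rise of the ferritins was smaller per step: from 33 to 36 hours FTH1 rose by 0.77 and FTL by 0.58, while TFRC changed by -0.59. FTH1 and FTL had also gained 0.49 and 0.40 from 21 to 24 hours. The intervals from 9 to 12 and from 33 to 36 hours were also those in which many other rows moved. Between 9 and 12 hours 19.8% of all tested rows changed by at least 0.5 on the log2 scale, and between 33 and 36 hours also 19.8%, against 3.35% to 7.28% for the other 10 intervals after 12 hours. In the first 3 intervals the share was 14.8%, 19.4% and 10.1%. The labels and files name no chip, hybridization or scan batch, so a batch that ran along these hours and time itself cannot be told apart.

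The late rise of FTH1, from 13.32 ± 0.16 over 24 to 33 hours to 14.08 ± 0.17 over 36 to 45 hours, was 0.77 (SE 0.089, adjusted p = 4.09e-06), or 1.70-fold. That of FTL, from 14.86 ± 0.10 to 15.37 ± 0.12, was 0.51 (SE 0.059, adjusted p = 3.88e-06), or 1.42-fold. Of the 5 tested genes, 2 rose and 1 fell in this comparison, set beside the 19.3% and 18.7% of all tested rows given above. In FTH1 and FTL all 4 values exceeded all 4 of the window before, as in 22.2% of all tested rows.

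FTH1 over 36 to 45 hours remained -0.40 (SE 0.089, adjusted p = 0.00226) from its level over 0 to 9 hours, while FTL differed by -0.09 (95% interval -0.21 to 0.03, adjusted p = 0.266), and by -0.03 without the 45 hour array. Whether the 2 differences themselves differ was not tested. TFRC and FTH1 were thus the 2 tested genes of the 5 that ended lower, against 15% of all tested rows lower and 16.2% higher. All 4 of their last values lay below all 4 of their first, as in 12.3% of all tested rows, with 13.6% the other way. The course of the ferritins, lower at 12 to 21 hours and higher at 36 to 45 hours with both changes called, was that of 930 of 11957 tested rows (7.78%). The course of TFRC, higher at 6 and 9 hours and lower at 36 to 45 hours with both changes called, was that of 554 rows (4.63%). The contrasts share arrays and are not independent of one another.

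**Figure D2:**
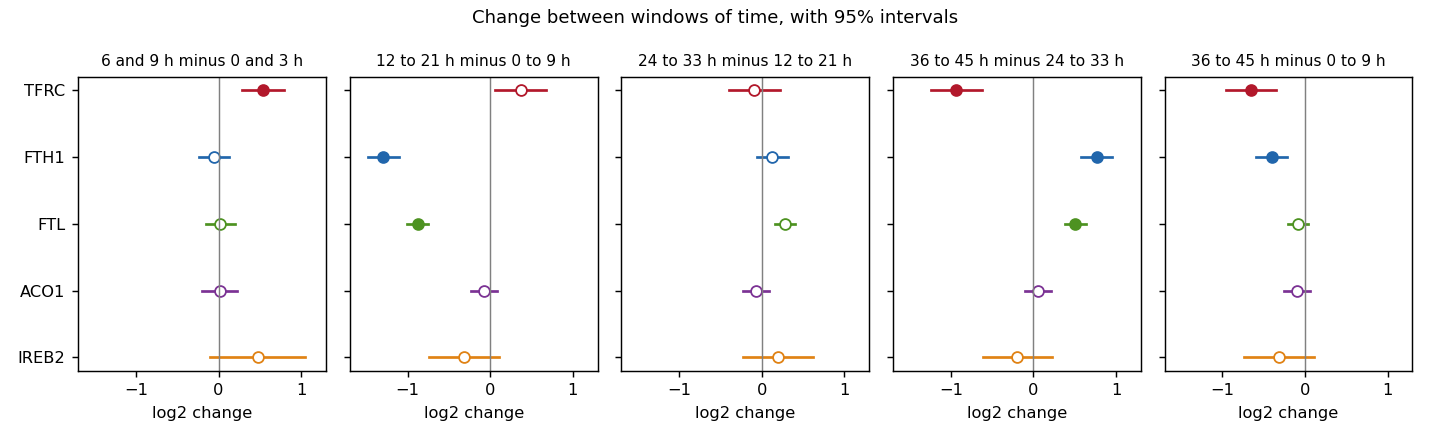
Log2 change (horizontal axis) of the 5 tested genes in 5 comparisons of time windows, with 95% intervals from limma as bars. Filled points have an adjusted p under 0.05. TFRC lies to the right early and to the left late, and FTH1 and FTL lie to the left at 12 to 21 hours and to the right at 36 to 45 hours.

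A smaller movement lay inside the middle of the course. TFRC, FTH1 and FTL were each lower at 21 than at 12 hours, lower at 33 than at 24 hours, and higher at 24 than at 21 hours after quantile normalization. For FTL the first of these turned with the scaling: it was higher at 21 than at 12 hours in the deposited intensities (24417 against 23824) and after median scaling (-0.87 against -0.91 from 0 hours). For TFRC the changes from 12 to 21, 21 to 24 and 24 to 33 hours were -0.50, 0.41 and -0.43, and after normalization it fell at every 3 hour step inside both windows, as did 110 of 11957 tested rows that also rose from 21 to 24 hours (0.92%). In the deposited intensities TFRC rose from 15 to 18 hours, from 9195 to 9264. For FTH1 the same changes were -0.25, 0.49 and -0.36. For FTL they were -0.06, 0.40 and -0.15. The direction of the 3 changes was that of 2631 tested rows (22%), and the step from 21 to 24 hours also divides the arrays with the higher and the lower level of negative control beads. The part of that level in the step was not tested.

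Between 12 to 21 and 24 to 33 hours none of the 5 genes passed limma's test after adjustment, and 1, FTL, did before it. Over all rows 3 of 11957 passed (0.0251%). The changes were -0.09 for TFRC (95% interval -0.40 to 0.21), 0.12 for FTH1 (95% interval -0.06 to 0.31) and 0.28 for FTL (95% interval 0.16 to 0.40, adjusted p = 0.204 in limma's fit). The FTL difference was the one whose windows did not overlap, and it passed with median scaling (0.49, adjusted p = 0.000998), with no normalization between arrays (0.46, adjusted p = 0.016) and with the deposited intensities (0.46, adjusted p = 0.0184).

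The 3 courses kept the same main fall and rise before and after normalization, but the steps of the FTL return depended on the scaling. After quantile normalization FTL changed by 0.28 at 24 to 33 against 12 to 21 hours and by 0.51 at 36 to 45 against 24 to 33 hours. With median scaling the same changes were 0.49 and 0.37. Deposited FTH1 intensity at 21 hours was 0.37 of its 0 hour value, and at 15 hours that of FTL was 0.494. The TFRC course peaked at 24 hours in the deposited intensities and at 12 hours after quantile normalization. Scaling to the median shifted the split of calls over all tested rows: 12 to 21 hours against the first window had 1807 rows higher and 1720 lower after quantile normalization but 2811 and 1030 after median scaling. For 36 to 45 against 0 to 9 hours the split was 1932 and 1798 against 2794 and 1029, for 36 to 45 against 24 to 33 hours 2309 and 2233 against 1719 and 2935, and for 6 and 9 against 0 and 3 hours 1583 and 1374 against 1794 and 1007. The calls of FTH1 and FTL in these comparisons and the late fall of TFRC held under both scalings.

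**Figure D3:**
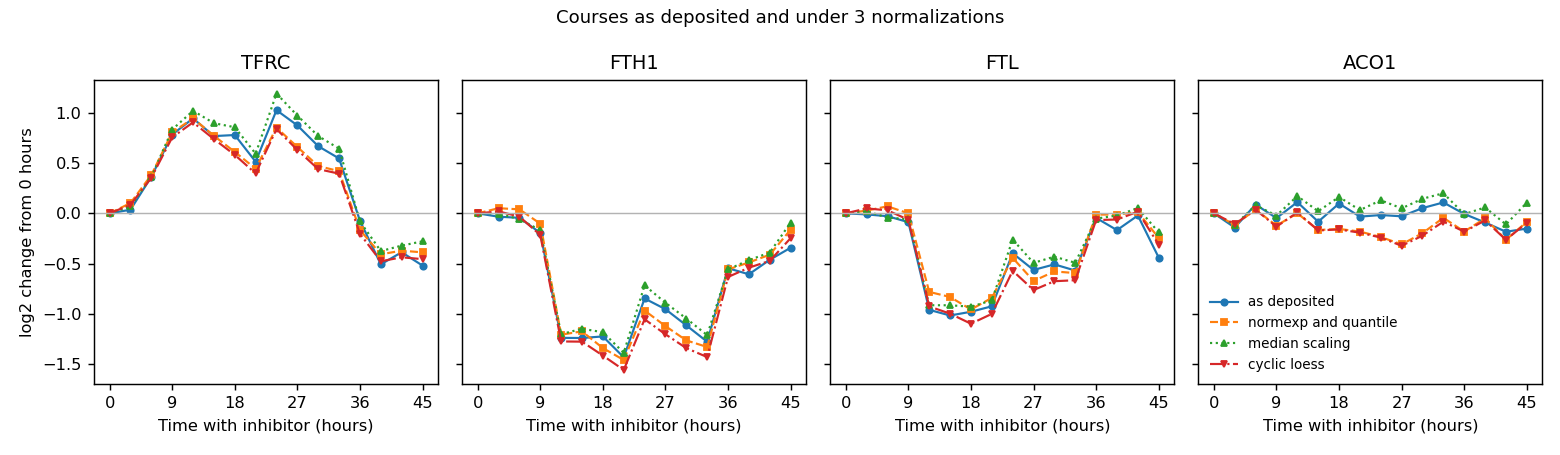
Log2 change from the 0 hour array (vertical axis) against hours with inhibitor for TFRC, FTH1, FTL and ACO1, as deposited and after quantile normalization, median scaling or cyclic loess (line styles). The lines of each gene keep the same drop and return in FTH1 and FTL and the same rise and fall in TFRC. In all genes shown, the ferritins included, the lines stand further apart in the middle hours than in the first hours.

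ACO1, the cytosolic aconitase that becomes iron regulatory protein 1 when it loses its iron-sulfur cluster, ranged in deposited intensity from 2730 to 3350 with a median of 3051. The highest normalized level was 1.27-fold the lowest. Its window means were 11.58 ± 0.08, 11.50 ± 0.09, 11.43 ± 0.11 and 11.48 ± 0.10 in order of time, and these overlapped. The 95% interval of its change over 12 to 21 hours was -0.23 to 0.08 and that of its late change -0.11 to 0.21, which exclude changes of the size seen in the ferritins.

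IREB2, iron regulatory protein 2, which is degraded when iron is plentiful, lay close to the limit of detection, with deposited intensities of 226.4 to 336.6 (median 269.0) and detection p-values of 0.00989 to 0.0438 on the 16 arrays. The window means were 6.77 ± 0.45, 6.45 ± 0.24, 6.65 ± 0.28 and 6.45 ± 0.21, and all windows overlapped. Its intervals were wide, from -0.74 to 0.10 for 12 to 21 hours and from -0.61 to 0.22 for the late change. Changes of mRNA within these limits were therefore not excluded. IREB2 passed in single alternatives: -0.50 without the 0 hour array for 12 to 21 hours (adjusted p = 0.0445) and for 36 to 45 hours (adjusted p = 0.0385), and -0.26 for 36 to 45 hours in the deposited intensities (adjusted p = 0.0338). The regulation of both proteins by iron is known to act on the protein, which was not measured.

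SLC40A1, which encodes the known iron exporter of animal cells, had deposited intensities of 152.4 to 198.3 (median 176.4) and detection p-values of 0.26 to 0.938, so that none of the 16 arrays showed it above background, and it was not tested. The other 6 genes fixed as export and hepcidin genes, among them the ferroxidases CP and HEPH and the hormone HAMP, also had no row that passed the filter.

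HMOX1, heme oxygenase 1, which opens the heme ring and sets its iron free, is set beside the ferritins. Its deposited intensity was 1691 at 0 hours and 1811 at 3 hours, then 463.5 at 6 hours and 292.7 at 9 hours. From 12 to 45 hours it lay close to the limit of detection, between 219.9 and 298.3 with detection p-values of 0.0113 to 0.129. The 12 hour value was not above background. At 6 and 9 hours HMOX1 was -3.27 (SE 0.30, adjusted p = 2.11e-06) from 0 and 3 hours, without overlap, and its step from 3 to 6 hours, -2.65, was the 3rd largest fall of all tested rows. The largest step of HMOX1 thus lay between 3 and 6 hours and those of FTH1 and FTL between 9 and 12 hours. Over 36 to 45 hours HMOX1 differed by 0.39 from 24 to 33 hours (95% interval -0.86 to 1.63, adjusted p = 0.656), with an SD of 1.97 over its first window, which spans the fall. Fitted on those 8 arrays alone, the same difference of 0.39 passed (adjusted p = 0.0157).

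**Figure D4:**
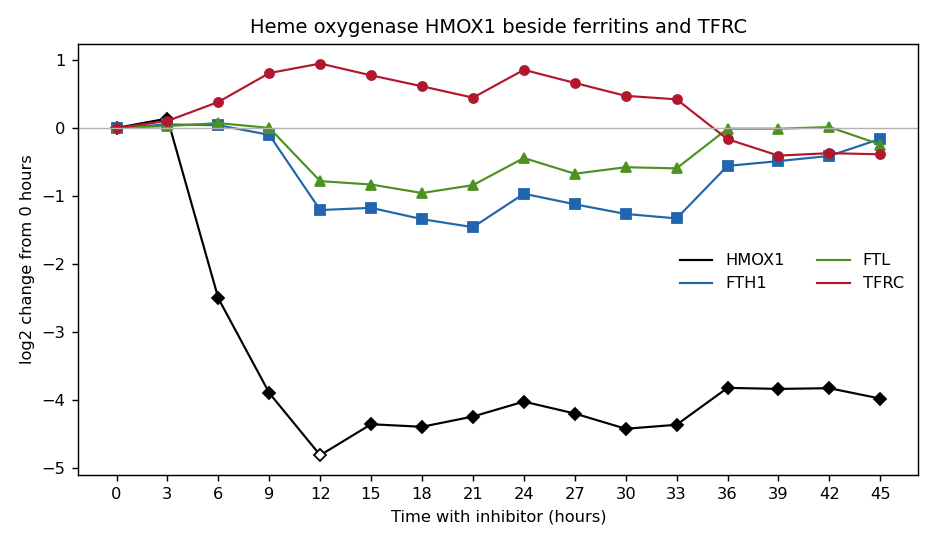
Log2 change from the 0 hour array (vertical axis) against hours with inhibitor for HMOX1, FTH1, FTL and TFRC, 1 array per point, with an open point where a row was not above background. HMOX1 is down at 6 hours, FTH1 and FTL at 12 hours. After background correction and normalization HMOX1 is still more than 3 log2 units below its start when the ferritins rise at 36 hours. Its deposited intensity was then 298.3 against 1691 at 0 hours, close to the limit of detection.

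Of 73 further genes fixed for iron uptake, storage, export, control, heme and iron-sulfur (Fe-S) clusters, 71 were on the array and 52 were tested. Time dependence was found for 37 of these (71.2%, against 54.6% of all tested rows). At 36 to 45 against 0 to 9 hours 16 were higher and 11 lower (51.9% called, against 31.2% of all tested rows), with a median change of 0.02 against -0.02 over all tested rows. At 12 to 21 hours 12 were higher and 8 lower (38.5%, against 29.5%), and at 36 to 45 against 24 to 33 hours 11 were higher and 12 lower (44.2%, against 38%). The list's median was 0.0017 for the first of these changes and -0.012 for the other, so that its members moved in both directions.

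Among the 7 tested uptake genes, 4 changed between the first and last windows, 2 up and 2 down (57.1% called, against 31.2% of all tested rows). CYBRD1, a ferric reductase of the plasma membrane, was lower and then higher in the same windows as the ferritins: its change was -0.78 (SE 0.19, adjusted p = 0.00527) at 12 to 21 hours and 1.71 (SE 0.19, adjusted p = 2.79e-06) at 36 to 45 against 24 to 33 hours, and it ended 2.35-fold above its first window (adjusted p = 0.000106). Its fall began earlier, with a deposited intensity of 1672 at 0 hours, 1094 at 6 hours and 926.6 at 9 hours, then 745.5 at its lowest at 15 hours and 2861 at 45 hours. STEAP3, the ferrireductase of the transferrin endosome, changed by -0.49 (adjusted p = 0.00448) and then 0.90 (adjusted p = 1.27e-05). These lowered-then-raised courses were found in 4 of the 52 tested genes (7.69%, against 7.78% of all tested rows), the others being NCOA4, the receptor that delivers ferritin to lysosomes, at -0.22 and 0.38, and FLVCR1, a heme exporter, at -0.49 and 0.34. LCN2, a secreted protein that binds siderophores, fell over the course. Its deposited intensity was 1773 on the 0 hour array and 514.5 on the last, and its level was -1.69 (SE 0.14, adjusted p = 1.84e-07) over the last against the first window.

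In the storage group PCBP2, a chaperone that hands iron to ferritin, was 0.42 higher at the end (adjusted p = 2.55e-05), while its relative PCBP1 was -0.28 (adjusted p = 0.0209). FBXL5, the ubiquitin ligase subunit that removes IREB2 protein, had no value above background from 0 to 9 hours. Over 36 to 45 hours its level was 0.50 higher (adjusted p = 0.00641 in limma's window fit), a change that rests on those undetected first values. With undetected values raised to the detection limit the difference was 1.09-fold, which was not tested. FBXL5 did not pass the spline of time (adjusted p = 0.0667), and its second row was above background on no array. Other mRNAs that carry an IRE did not move as a group. EPAS1, whose IRE lies before the coding region as in the ferritins, was 0.67 higher at the end (adjusted p = 0.000256) and 0.73 higher over 36 to 45 than over 24 to 33 hours (adjusted p = 8.77e-05), and its change at 12 to 21 hours was -0.14 (adjusted p = 0.39). CDC42BPA, whose IRE follows the coding region as in TFRC, differed by -0.27 at the end (adjusted p = 0.0871).

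Of 13 tested heme genes, 5 were higher and 3 lower at the end (61.5% called, against 31.2% of all tested rows). PPOX, an enzyme near the end of heme synthesis, was 0.81 higher (adjusted p = 2.8e-05). SLC46A1, a carrier of heme and folate, had no value above background from 36 to 45 hours. Its change there from the first window was -0.69 (SE 0.23, adjusted p = 0.0319 in limma's window fit). The first window ran from 5.85 at 0 hours, also not above background, to 7.37 at 9 hours. The late mean of 5.89 was thus near the 0 hour value. Of 25 tested genes for Fe-S clusters and mitochondrial iron, 6 were higher and 5 lower at the end (44% called, against the same 31.2%). From 24 to 33 to 36 to 45 hours 8 of these 25 fell and 1 rose (36% called, against 38% of all tested rows, of which 18.7% were lower and 19.3% higher, a split that median scaling moved to 2935 lower and 1719 higher), the fall of BOLA3 being -0.73 (adjusted p = 2e-07). HSPA9, the mitochondrial chaperone of cluster transfer, and ABCB10, a mitochondrial transporter, were the 2 of 52 genes (3.85%) that rose at 6 and 9 hours and fell late as TFRC did, against 4.63% of all tested rows.

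**Figure D5:**
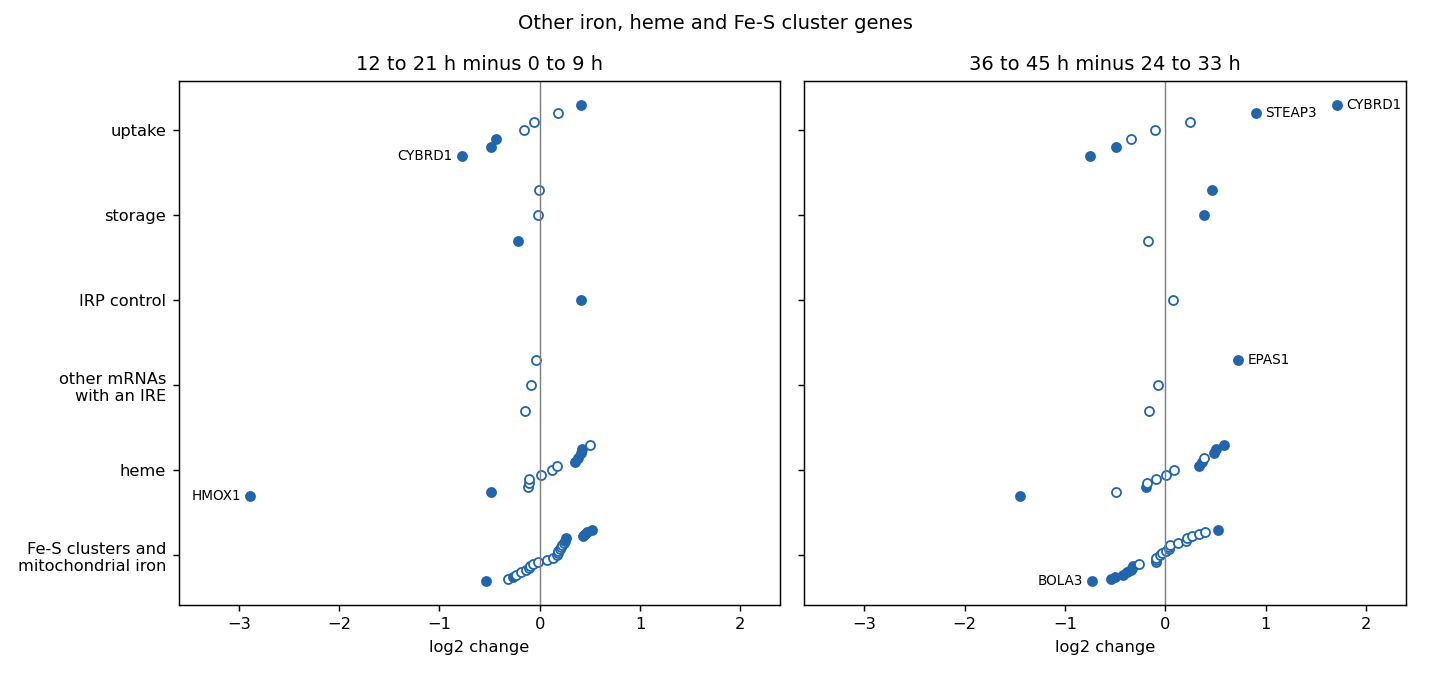
Log2 change (horizontal axis) of the 52 other tested iron, heme and Fe-S genes by role, at 12 to 21 against 0 to 9 hours (left) and at 36 to 45 against 24 to 33 hours (right). Filled points have an adjusted p under 0.05, and the called genes with the largest changes that the text describes are named. CYBRD1 is lowest of the uptake genes on the left and highest on the right, and the Fe-S group has 8 filled points to the left of 0 on the right panel.

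The rows whose courses were most like those of the members were found by Pearson's r over the 16 arrays, which share the same cultures and normalization. FTH1 was most like TP53I3 (r = 0.98), HIST1H2BK (r = 0.98) and NAGK (r = 0.98), and FTL most like DDAH2 (r = 0.97), CD24 (r = 0.96) and RABAC1 (r = 0.96). TFRC was most like HNRPAB (r = 0.97), the row FLJ25416 (r = 0.97) and XRCC3 (r = 0.96). An r above 0.9 was reached by 210 rows for TFRC (1.76% of all tested rows), 113 for FTH1 (0.945%) and 62 for FTL (0.519%). Opposite courses, with an r below -0.9, were those of 266 rows for TFRC, 85 for FTH1 and 51 for FTL. For ACO1 the nearest was ZFYVE27 (r = 0.87), then COPA (r = 0.85), and for IREB2 it was C6orf113 (r = 0.81), then FLJ13576 (r = 0.81) and HSPC117 (r = 0.81), with no row above 0.9 in either case.

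These values are of whole cultures, in which fewer cells of a kind and less RNA per cell cannot be told apart. FTH1 has many near-identical processed copies in the genome, and the file holds no probe sequences, so that the share of its signal from such copies is unknown.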

How the data were processed

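The authors hybridized 1 Illumina Ref8v2 array per time point and deposited the intensity of each probe row, not normalized, with a detection p-value (deposited as fractions of 1 for how often negative control beads were brighter). Of 20589 rows, 1497 combine several probes. Here the intensities were background-corrected by normexp, with the control level inferred from the detection p-values, an offset of 16 was added, and values were quantile-normalized and taken as log2 (R 4.3.3, limma 3.58.1, matplotlib 3.10.9). Rows with a detection p-value under 0.05 on at least 3 arrays were tested (11957).

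limma fitted a natural spline of time (3 degrees of freedom), 4 windows of 4 time points, and 8 windows of 2 for the early comparison, on all 16 arrays with an intensity trend. P-values are two-sided and Benjamini-Hochberg adjusted over all tested rows, with a threshold of 0.05. The scripts were tested on simulated data. The members and gene lists were chosen with earlier results of these data known. Named genes are all members, HMOX1, the 4 largest increases and 4 largest decreases of the list over 36 to 45 against 0 to 9 hours, the brightest tested row of a role with none, and the 3 rows most like each member. STEAP3, NCOA4, FLVCR1, PCBP1, CDC42BPA, BOLA3, HSPA9 and ABCB10 were named after their values were seen. Some genes that the rule names are not reported here. Older symbols in the file were matched through RefSeq names, such as SLC46A1 listed as HCP1. Alternatives covered background correction, normalization, filters, trend, spline form, arrays fitted and leaving out each array.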

Additional observations from a re-analysis of the deposited data

Results flagged for a closer look

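Among the 4 time points of a window, a single value stood far from the other 3 in 3 cases, measured as its gap to the nearest value over the whole range, past Dixon's limit for 4 values. Chance alone gives such a gap in about 1 of 20 windows. FTL at 45 hours was 15.19, with the other 3 of its window at 15.42 to 15.45 (gap over range 0.904). TFRC at 36 hours was 12.26, with the others at 12.02 to 12.05 (gap over range 0.85). ACO1 at 12 hours was 11.63, with the others at 11.45 to 11.47 (gap over range 0.857). With 1 array per time point, whether such a value belongs to the culture or to the array was not tested.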

How the results depend on the processing

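No paired analysis was possible because each time point has 1 array, and the groups share no more than the replicate number 1. A chip could not be fitted as a block, since no chip is named. No value of a member changed direction after passing the test. With median scaling 36 to 45 against 0 to 9 hours had 1029 rows lower and 7 list genes lower, 12 to 21 hours had 2811 higher and 1030 lower with TFRC at 0.5262, and 24 to 33 against 12 to 21 hours had 11 rows called, 8 higher, with 1 member, FTL, at 0.4872. With no normalization between arrays TFRC at 12 to 21 hours was 0.4686, 24 to 33 hours had 1 row higher and 1 member, FTL, at 0.4646, 1458 rows were higher late and 790 lower early. With the deposited intensities, added after seeing the data, the values were 0.456 for TFRC, 1 row higher and 1 member, FTL, at 0.4611, 2803 rows lower at the end with IREB2 at -0.2598, 1401 higher late and 722 lower early. Without the intensity trend 1 row was called at 24 to 33 hours, 1 lower. With time fitted as a straight line 1953 rows, 0 members and 16 list genes passed, with adjusted p of 0.1 for TFRC, 0.541 for FTH1, 0.969 for FTL and 0.0528 for HMOX1; a straight line cannot follow a fall and a return. On the 8 arrays compared alone, 2475 rows passed at the end, 1119 lower, with 6 list genes lower and HMOX1 at an adjusted p of 0.0571, and, added after seeing the data, 2178 at 12 to 21 hours, 1102 higher and 1076 lower.

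Leaving out 1 array at a time, TFRC ranged from 0.2635 to 0.5322 at 12 to 21 hours (passing without 9 hours, adjusted p = 0.00229, and without 21 hours, adjusted p = 0.0387) and from 0.3303 to 0.7548 at 6 and 9 hours. IREB2 ranged from -0.5043 to -0.1439 at 12 to 21 hours and from -0.5025 to -0.1421 at the end. FTL at 24 to 33 hours ranged from 0.2379 to 0.3148 and passed without 45 hours (adjusted p = 0.0455). At 24 to 33 hours 1 to 6 rows were called, 0 to 2 higher and 1 to 5 lower, with 0 to 1 members, and at 6 and 9 hours 1694 to 3196, 957 to 1755 higher and 737 to 1441 lower, with 0 to 1 members. The causes of these changes were not tested. Over all alternatives that left out no array, HMOX1 apart, 525 recomputed results were held to be the same. These are values that kept their side of the threshold and counts that stayed near the main count. Of the rest 27 counts moved, 7 values passed newly and 3 no longer passed. For HMOX1 51 values kept their side, 1 passed newly and 2 no longer passed. Low signal over background limits IREB2, FBXL5, SLC46A1 and SLC40A1, and HMOX1 from 12 hours on.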
